A study of Mus musculus with 15 samples.

Results

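The comparison is between dural macrophages of 10-day-old mouse pups (P10) and of embryos at the embryonic age E14.5. Its members were the 3 P10 and the 3 E14.5 libraries, 6 of the 15 libraries of a bulk RNA-seq series that covers 5 ages, and they were chosen by age alone. All 6 came from untreated C57BL/6J mice of genotype Cx3cr1GFP/wt, in which a green fluorescent protein gene replaces 1 of the Cx3cr1 alleles, so P10 and E14.5 mice carry the same reporter. The sorted cells were positive for CD206, a mannose receptor encoded by Mrc1, and came from the dura mater. The labels put both ages in the same sequencing project. Per the series text each age had 3 to 5 individual mice. The labels give no litter or sex, so the p-values rest on how far libraries with the same age label differ, which may be partly technical.

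The dura is the outermost membrane around the brain, and its macrophages belong to the border-associated macrophages, which take up material, clear debris and present antigen where the brain meets the periphery. Macrophages of the early embryo descend largely from the yolk sac and divide while the tissue around them grows. After birth border macrophages acquire scavenger receptors, C-type lectins and, in part of the population, the MHC class II proteins that present peptides to helper T cells.

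Levels are given as TMM-scaled CPM (read counts scaled to a common library size), which correct for depth and for differences in composition between libraries but not for transcript length. A gene was called at an adjusted p under 0.05 in edgeR's quasi-likelihood test over all 14683 genes tested. Of these, 1316 were called (8.96%), 853 higher at P10 (5.81%) and 463 lower (3.15%), and the last 2 shares are the background for the counts of each gene group. At least 2-fold, 492 genes were higher (3.35%) and 277 lower (1.89%). At least 16-fold, 83 were higher and 14 lower. Total counts were 19029049 to 30614583 at P10 and 20540444 to 25171858 at E14.5. The log2 CPM of libraries correlated at 0.9 to 0.905 among the P10 libraries, 0.93 to 0.948 among the E14.5 libraries and 0.867 to 0.89 between the ages.

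**Figure D1:**
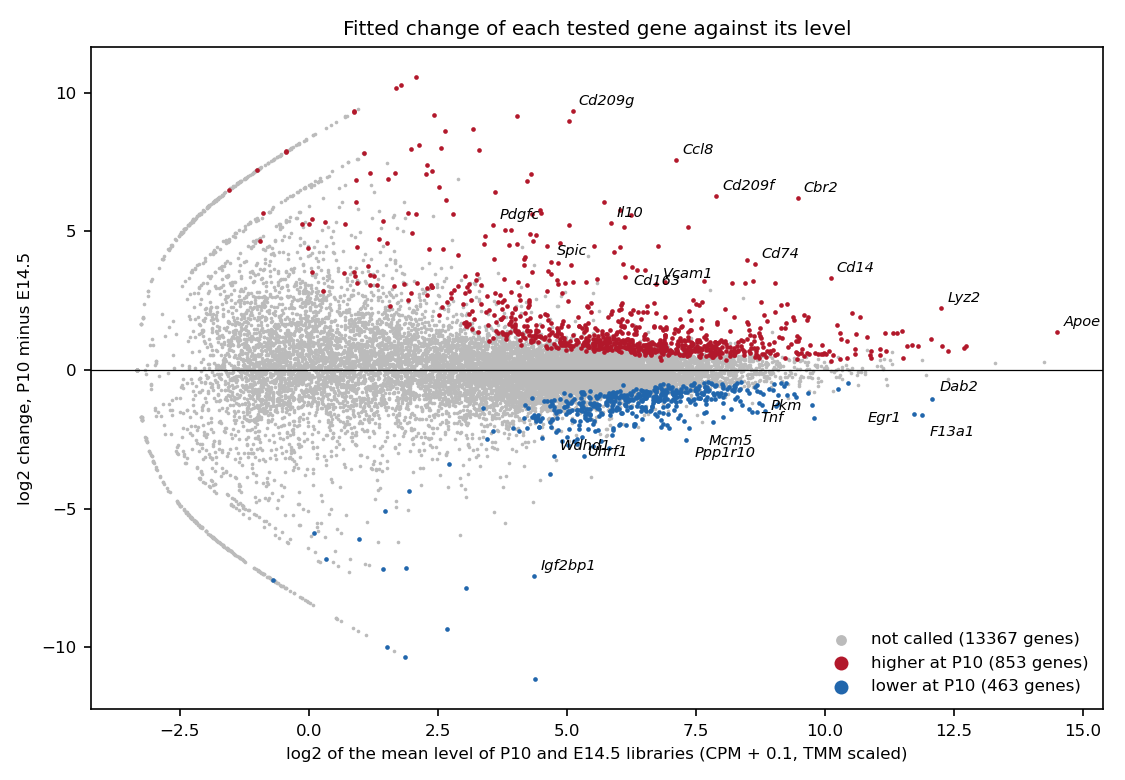
Fitted log2 change of each tested gene (vertical, P10 minus E14.5) against the log2 of its mean level in the P10 and E14.5 libraries (horizontal, CPM with 0.1 added). Red points are the 853 genes called higher at P10, blue points the 463 called lower, and the called changes reach further upward than downward among genes of middle and high level.

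The balance of rises and falls depended on the scaling. With TMM 64.8% of the called genes were higher at P10, against 44.8% with total-count scaling and 74.2% with upper-quartile scaling. Fitting only the 6 libraries gave 50.1%. Total-count scaling moved the median log2 change of all genes to -0.13 and upper-quartile scaling moved it to 0.11, beside 0.02 with TMM. Changes are therefore read relative to the average gene. All 1316 called genes kept their sign under each scaling.

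Libraries of the ages also differed in 2 other ways. The first was transcript length. Genes were put into 4 classes of equal size by transcript length. In the class with the shortest transcripts, up to 1924 bases, the median log2 change was 0.42 and 12.1% were called higher at P10, with 0.613% lower. In the class with the longest, from 4576 bases, the median was -0.34, with 1.56% called higher and 4.74% lower. The gap between the shortest and the longest class, in log2 CPM relative to the mean of all libraries, was 0.38, 0.47 and 0.05 in the P10 libraries and -0.25, -0.47 and -0.55 in the E14.5 libraries, so the ages did not overlap. When this trend was removed from each library, 685 genes were called, 440 higher and 245 lower, and 599 of them were among the 1316. Whether the trend reflects the cells or the RNA and library preparation was not tested.

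**Figure D2:**
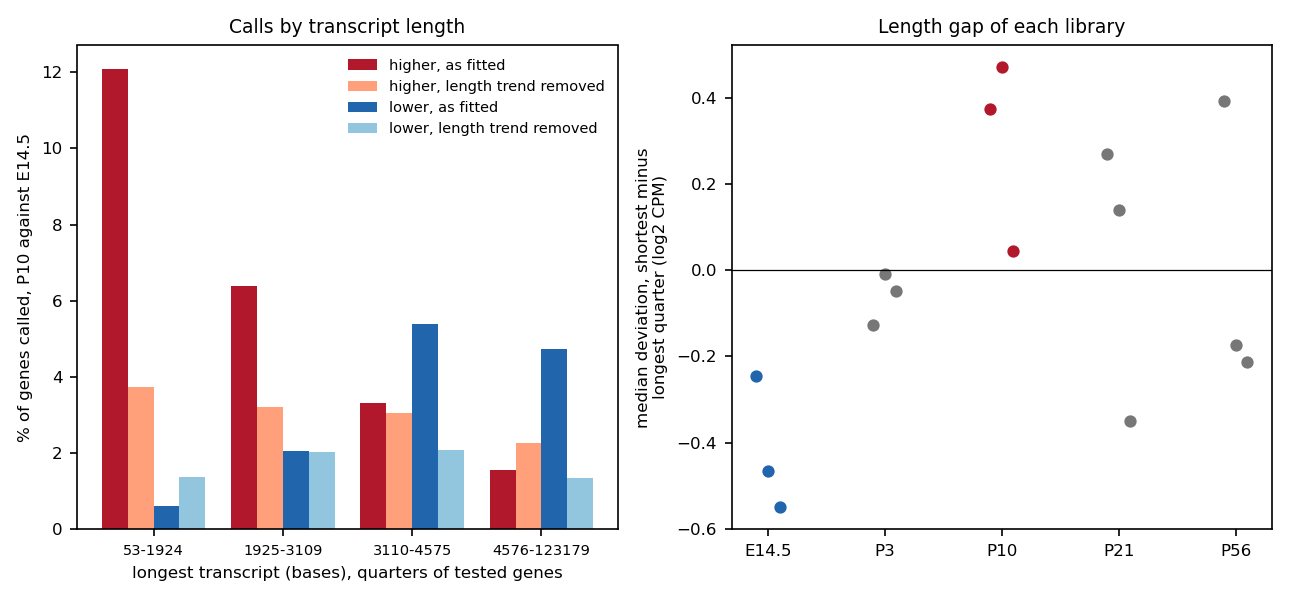
Left, percent of genes called higher or lower at P10 in each of 4 classes of transcript length (bases), as fitted and with each library's length trend removed. Right, the median deviation of the shortest minus the longest class (log2 CPM) in each of the 15 libraries, where the E14.5 libraries lie below and the P10 libraries above 0.

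The second was sex-linked transcription. Ddx3y, a Y-linked gene, had 88.2, 90.6 and 68.4 CPM of the total count, without TMM, in the P10 libraries, and 0.487, 0.551 and 62.2 in the E14.5 libraries. Xist, which is transcribed from the inactive X chromosome of female cells, had 0.0327, 0 and 0 in the P10 libraries and 80.2, 57.6 and 3.22 in the E14.5 libraries. All P10 libraries thus carried Y-linked counts, while E14.5 replicates 1 and 2 lacked them almost entirely. With the summed Y-linked level as a covariate 224 genes were called. This covariate runs largely along age, so fewer calls under it cannot tell sex from age. A fit without E14.5 replicates 1 and 2 left 1 E14.5 library, so its number of calls is not given. All 1316 kept their sign in both fits. The median gene kept 0.999 of its log2 change under the covariate and 1.01 without those 2 libraries. The 1316 were called in fits that share these libraries, so a kept sign is a weak check.

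Because these settings end many calls, the text rests on genes that hold. Of the 254 called members of the gene lists used here, 142 stayed called whichever of the 6 libraries was left out. Of the 254, 73 kept it in all 24 alternative settings other than the stricter test against a log2 change of 1. A gene given with its fitted change below is one of those 73, or Mgp, Igf2bp1 or Ppp1r10, which held in the same way, unless the text says otherwise.

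The sorted population carried its defining genes at both ages. Mrc1 had 1640, 2119 and 2409 CPM in the P10 libraries and 2427, 2632 and 2661 CPM in the E14.5 libraries, a difference that did not pass the test (log2 change -0.32 ± 0.26, SE; adjusted p = 0.522). Csf1r, the receptor for the growth factor on which macrophages depend, averaged 3740 ± 611 CPM at P10 and 4251 ± 363 CPM at E14.5 (SD, n = 3 each) and did not pass either (-0.18 ± 0.26, adjusted p = 0.747). Adgre1, which encodes F4/80, averaged 1420 ± 124 CPM at P10 and 1424 ± 174 CPM at E14.5. Cx3cr1, the fractalkine receptor gene with the reporter allele, had 337, 337 and 476 CPM at P10 and 868, 579 and 690 CPM at E14.5. It was called lower (-0.89 ± 0.21, adjusted p = 0.0151), but not without P10 replicate 1 (adjusted p = 0.069), P10 replicate 2 (0.0789) or E14.5 replicate 1 (0.069), nor with the length trend removed (0.175).

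Some transcripts of other cells came with the sort, and several were higher at P10. The 10 mast cell markers summed to 176 to 436 CPM of the total count in the P10 libraries and 2.15 to 129 in the E14.5 libraries. The 15 fibroblast markers summed to 2267 to 4677 at P10 and 1521 to 2639 at E14.5, and 6 of them were called higher. Much of that sum was Igfbp4, which was not called, with 1722, 1453 and 1547 at P10 and 1426, 1624 and 1866 at E14.5. The median log2 change of the 15 was 2.79, with 14 above 0. Col1a1, a collagen gene of fibroblasts and bone cells, reached 1004 in P10 replicate 3 and 295 in E14.5 replicate 3, against 5.99 in E14.5 replicate 1. The 12 erythroid markers summed to 32.4 to 148 at P10 and 139 to 384 at E14.5. The osteoclast markers summed to 1161 to 2222 at P10 and 531 to 997 at E14.5, with Ctsk and Acp5 called higher. The monocyte markers summed to 1091 to 1455 at P10 and 252 to 471 at E14.5, mostly from Nr4a1. S100a4, a monocyte marker also called higher, had 95.4, 71.25 and 50.2 at P10 and 12.7, 26.1 and 9.65 at E14.5. The dendritic cell markers summed to 444 to 538 at P10 and 283 to 448 at E14.5, with Cd209a and Bst2 called higher. The endothelial markers summed to 102 to 150 at P10 and 59.4 to 63.4 at E14.5. Most of that sum was Egfl7, the only one called higher, with 97.1, 145 and 122 at P10 and 48.5, 44.1 and 52.3 at E14.5. Of the 9 tested, 7 had a log2 change above 0. Pecam1 went the other way, with 0.163, 0.852 and 0.736 at P10 and 6.13, 14.4 and 4.81 at E14.5. The mural cell markers summed to 14.3 to 35.7 at P10 and 3.26 to 5.68 at E14.5. The bone and cartilage markers summed to 246 to 332 at P10 and 440 to 811 at E14.5, with none called. Spp1 made most of that sum, with 268.1, 243.7 and 211.4 at P10 and 796.9, 436.8 and 586.8 at E14.5. Alpl was higher at P10, with 37.56, 17.04 and 17.87, against 0.6329, 0.04241 and 6.277 at E14.5. Among the 9 bone and cartilage markers tested, 4 had a log2 change above 0. The T and NK cell markers summed to 149 to 222 at P10 and 31.9 to 46.1 at E14.5, nearly all from Cd4, which was called higher, while Cd3d, Cd3e and Cd3g were at 0 in all 6 libraries. The neutrophil markers summed to 0.915, 2.56 and 22.7 in the P10 libraries and at most 2.77 at E14.5. Most of the sum in P10 replicate 3 came from S100a8 and S100a9, and Ly6g and Elane were at 0 in all 6 libraries. In bulk RNA fewer cells of a type and less RNA per cell cannot be told apart.

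The largest rises included genes of that kind. Mgp, a matrix protein of fibroblasts and cartilage, had 210, 85.1 and 90.6 CPM at P10 and 3.95, 0.44 and 2.82 CPM at E14.5 (log2 change 5.75 ± 0.69, adjusted p = 0.000182). Igfbp7, a secreted binding protein of stromal and vessel cells, had 39.1, 15.8 and 42.6 CPM at P10 and at most 0.0868 CPM at E14.5. Its call was lost in the fit with 1 E14.5 library, where its log2 change was 9.68. Mcpt4, a mast cell protease, had 63, 23.8 and 24.7 CPM at P10 and at most 0.367 CPM at E14.5. Its call (6.81 ± 1.83, adjusted p = 0.0328) was lost without each library in turn, and its log2 change was 2.44 with the mast cell sum as a covariate (adjusted p = 0.655). With the fibroblast, mast cell or erythroid sum as a covariate, 582, 498 and 470 genes were called. All 1316 kept their sign, and the median gene kept 1.04, 1.04 and 1.06 of its log2 change. Those genes were called in the same libraries, and Igfbp4 made most of the fibroblast sum at E14.5. These fits therefore cannot show how much of the changes came from other cells.

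Border macrophage markers were among the strongest changes at P10, and they did not all move the same way. Of 24 tested markers 14 were called higher and 5 lower, beside 5.81% and 3.15% of all genes, with a median log2 change of 1.12 against 0.02 over all genes. Without each library in turn 12 to 13 were higher and 4 to 5 lower, and with the length trend removed 11 and 4. With the Y-linked covariate the counts were 10 and 2.

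Cbr2, a carbonyl reductase used to mark border and other tissue macrophages, had 1256, 1399 and 1546 CPM in the P10 libraries and 20.1, 18.5 and 19.2 CPM in the E14.5 libraries. The libraries of each age lay close together and the ages were far apart (log2 change 6.18 ± 0.14, adjusted p = 5.1e-12). Cd163, the scavenger receptor for haptoglobin-bound haemoglobin, had 307, 384 and 398 CPM at P10 and 27.3, 35.6 and 56 CPM at E14.5 (3.19 ± 0.35, adjusted p = 8.46e-05). At P3 its mean was 590 ± 31.9 CPM, above the P10 mean, a difference not tested here. Cd209f, a C-type lectin of the DC-SIGN family, had 403, 505 and 491 CPM at P10 and 8.29, 6.93 and 3.13 CPM at E14.5 (6.26 ± 0.45, adjusted p = 1.83e-06). Its neighbour Cd209g had 70.6, 62.4 and 73.5 CPM at P10 and between 0.0348 and 0.26 CPM at E14.5. Members of the Cd209 family are similar in sequence, and how reads shared between them were counted is not given in the sources used here. The galactose-type lectins Clec10a and Mgl2 had means of 316 ± 31.9 and 267 ± 24.8 CPM at P10, against 62.6 ± 2.64 and 60.9 ± 6.86 CPM at E14.5.

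Other markers of the same list were lower at P10. F13a1, the A subunit of clotting factor XIII, had 1715, 1673 and 2109 CPM at P10 and 4736, 6035 and 6240 CPM at E14.5 (log2 change -1.63 ± 0.19, adjusted p = 0.000153). Dab2, an endocytic adaptor, had 2479, 2662 and 3214 CPM at P10 and 5280, 5890 and 6261 CPM at E14.5 (-1.06 ± 0.14, adjusted p = 0.000408). The highest P10 library stayed well below the lowest E14.5 library for both. Lyve1, the hyaluronan receptor of vessel-associated macrophages, had 371, 449 and 421 CPM at P10 and 1223, 1395 and 1483 CPM at E14.5. Its fall (-1.72 ± 0.35, adjusted p = 0.0081) was named after its values were seen. It was lost with fibroblast, mast cell or Y-linked covariates and without E14.5 replicates 1 and 2. Colec12 and Ednrb were the other 2 called lower. F13a1 did not fall steadily through all ages, with a mean of 3590 CPM at P21 and 3998 CPM at P56.

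**Figure D3:**
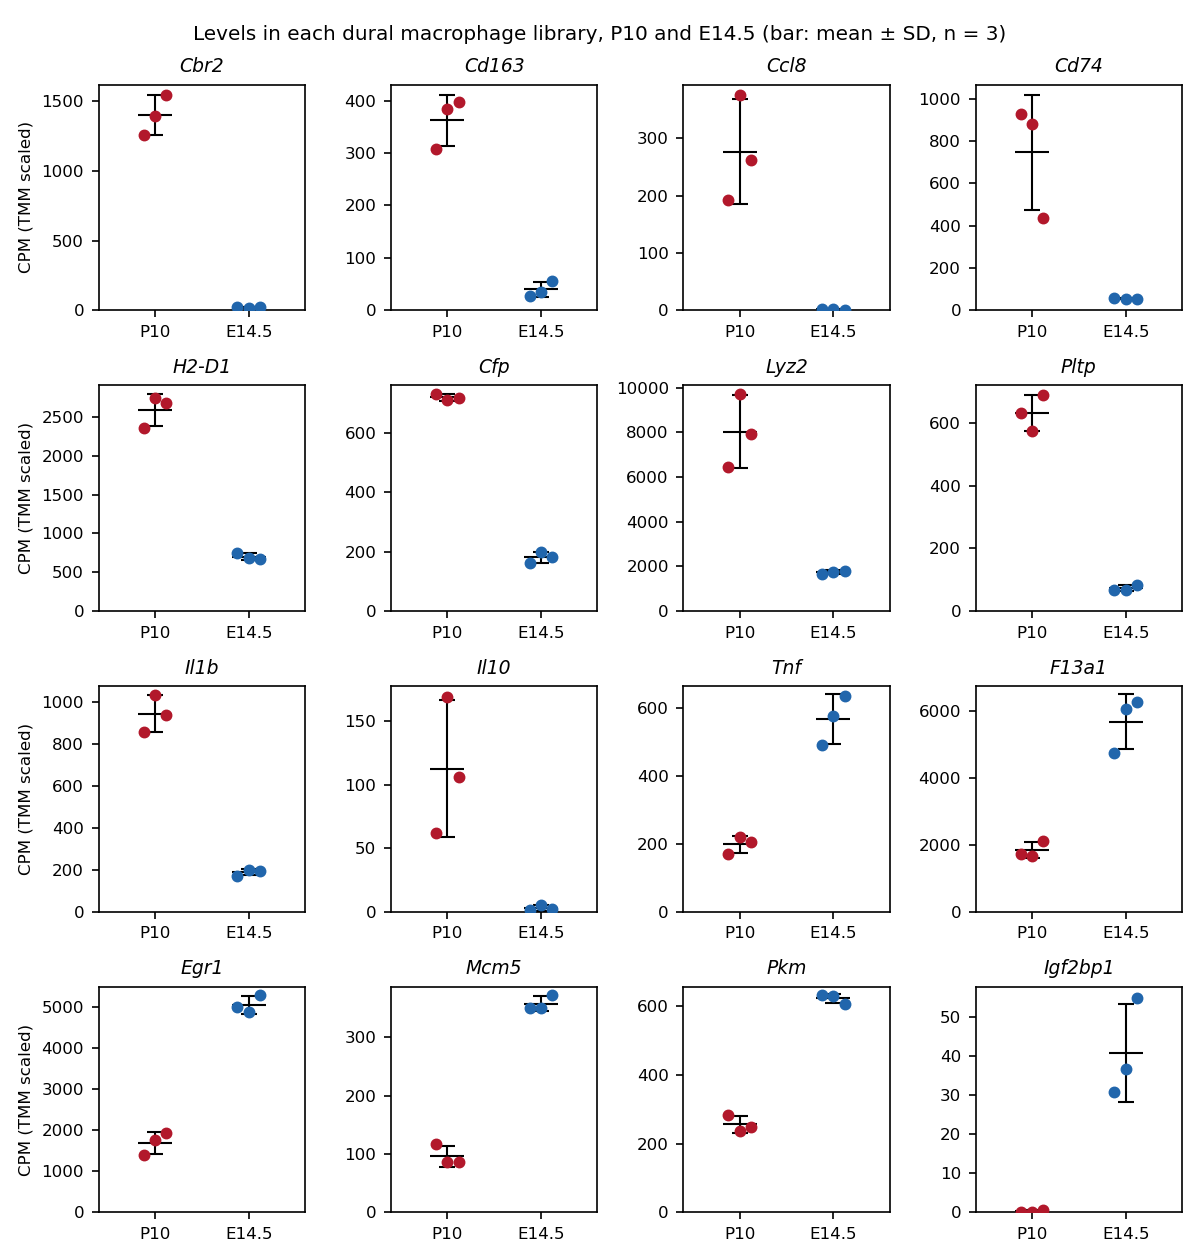
Level of 16 genes in each P10 library (red, left) and E14.5 library (blue, right), in CPM on linear axes that start at 0, with the mean and SD of 3 libraries. In every panel the 3 P10 libraries lie on one side of the 3 E14.5 libraries, above them for the first 10 genes and below them for Tnf, F13a1, Egr1, Mcm5, Pkm and Igf2bp1.

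Part of the general macrophage genes rose. Of 18 tested core macrophage genes 9 were called higher and none lower, with a median log2 change of 0.65, and 6 to 8 were called higher without each library in turn and 4 with the Y-linked covariate. Lyz2, the lysozyme gene of myeloid cells, had 6455, 9702 and 7932 CPM at P10 and 1634, 1732 and 1809 CPM at E14.5 (2.22 ± 0.16, adjusted p = 2.25e-06). Cd14, the co-receptor that hands lipopolysaccharide to TLR4, had 1935, 2036 and 2047 CPM at P10 and 199, 177 and 234 CPM at E14.5 (3.30 ± 0.32, adjusted p = 2.7e-05). Aif1, which encodes the actin-bundling protein IBA1, averaged 987 ± 172 CPM at P10 and 424 ± 21.7 CPM at E14.5. The neighbouring membrane protein genes Tmem176a and Tmem176b rose almost equally, by 1.90 ± 0.16 and 1.91 ± 0.13 on the log2 scale.

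Antigen presentation rose on both the class I and the class II side. Class II molecules load peptides taken up from outside the cell, and class I molecules show peptides made inside it. Of 13 class II genes tested 6 were called higher and none lower (median 2.81), and the count was 6 without each library in turn and with the length trend removed. Cd74, the invariant chain that guides class II proteins to the endosome, had 927, 879 and 435 CPM at P10 and 55.6, 54.2 and 50.8 CPM at E14.5 (3.80 ± 0.27, adjusted p = 1.83e-06). H2-Aa, the alpha chain of I-A, had 214, 163 and 65 CPM at P10 and 7.46, 1.1 and 0.939 CPM at E14.5 (5.57 ± 0.77, adjusted p = 0.000494) and was named after its values were seen. P10 replicate 3 was the lowest of its age for both genes and still above every E14.5 library. The peptide-exchange genes H2-DMa and H2-DMb1 rose by 2.47 ± 0.20 and 2.83 ± 0.25. The monocyte marker S100a4 and the dendritic cell marker Cd209a were also called higher. Whether such cells contributed to the class II rise was not tested.

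Of 17 class I pathway genes 11 were called higher and 1 lower (median 1.24), with 8 to 10 higher without each library in turn. H2-D1, a classical class I heavy chain, had 2363, 2748 and 2687 CPM at P10 and 750, 677 and 674 CPM at E14.5 (1.89 ± 0.11, adjusted p = 2.45e-07). H2-K1, the other classical heavy chain, rose by 1.97 ± 0.15. Their partner B2m, beta-2 microglobulin, averaged 3845 ± 700 CPM at P10 and 1512 ± 76.5 CPM at E14.5. Class I genes are similar in sequence, so reads may be shared among them. Erap1, the peptide trimmer called lower, lost that call without each library except P10 replicate 3. The P3 means differed between the 2 pathways. H2-D1 had 2190 ± 139 CPM at P3, close to its P10 mean of 2599 ± 207, while Cd74 had 180 ± 44.5 CPM at P3 and 747 ± 271 CPM at P10, with 4219 CPM at P21 and 15253 CPM at P56.

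The promoters of the class II genes share a short Y-box, the inverted CCAAT motif, which belongs to the module bound by NF-Y in this family. RefSeq windows (GRCm38.p6, 250 bases before to 50 after the start) were at hand for 9 of the 13 class II genes, and all 9 held CCAAT on either strand, as did 43.0% of the 10731 tested genes with a window. The windows of H2-Aa and H2-DMb1 are shown because both genes rose and both hold the motif within 70 bases of the start. They run from 170 bases before to 30 after the start, on the gene's own strand, with the motif in capitals. H2-Aa is at chr17:34287794-34287993 (minus strand), with ATTGG 48 bases upstream, and H2-DMb1 at chr17:34153021-34153220 (plus strand), with ATTGG 61 bases upstream.
H2-Aa: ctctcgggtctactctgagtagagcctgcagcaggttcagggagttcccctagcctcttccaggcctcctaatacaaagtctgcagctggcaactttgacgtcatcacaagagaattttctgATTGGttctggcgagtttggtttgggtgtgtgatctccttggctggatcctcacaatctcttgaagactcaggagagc
H2-DMb1: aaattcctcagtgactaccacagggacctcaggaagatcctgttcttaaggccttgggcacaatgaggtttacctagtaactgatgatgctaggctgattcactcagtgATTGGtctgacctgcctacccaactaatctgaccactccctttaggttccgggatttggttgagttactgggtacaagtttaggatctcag
The match describes the sequence only and is no measure of binding.

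Some opsonin and antibody receptor genes rose as well. Of 15 complement genes 7 were called higher and none lower (median 0.87), with 6 to 7 higher without each library in turn. The count was 4 with the fibroblast, mast cell or Y-linked covariate. Cfp, properdin, which stabilises the alternative pathway convertase, had 733, 711 and 717 CPM at P10 and 163, 199 and 180 CPM at E14.5 (1.99 ± 0.11, adjusted p = 1.27e-07). The 3 chains of C1q, the recognition unit of the classical pathway, rose by 1.34 ± 0.10 for C1qa, 0.87 ± 0.10 for C1qb and 1.11 ± 0.11 for C1qc. Fcgr2b, the inhibitory receptor for IgG, averaged 734 ± 75.5 CPM at P10 and 136 ± 26.8 CPM at E14.5 (2.43 ± 0.21, adjusted p = 9.11e-06). Of 9 Fc receptor genes 4 were called higher (median 0.54), but 2 without P10 replicate 2, E14.5 replicate 1 or E14.5 replicate 2. With the length trend removed Fcgr2b was the 1 still called. Among 24 interferon-stimulated genes 8 were called higher (median 0.60), but 4 to 7 without each library in turn and 2 with the length trend removed. Ifitm3, a membrane restriction factor that kept its call in all of these fits, had 227, 251 and 203 CPM at P10 and 69.1, 69.2 and 54.6 CPM at E14.5 (1.82 ± 0.18, adjusted p = 2.44e-05).

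Secreted signals changed in both directions. Of 21 chemokine genes 10 were called higher and none lower (median 1.11). The count was 5 with the length trend removed and 2 with the Y-linked covariate. Ccl8, a ligand that draws monocytes and T cells, had 193, 375 and 262 CPM at P10 and 2.17, 1.21 and 1.04 CPM at E14.5 (7.57 ± 0.50, adjusted p = 1.11e-06). Its P3 mean was 20.8 ± 10.3 CPM. Cxcl16, a membrane-bound chemokine and scavenger receptor, averaged 189 ± 18.2 CPM at P10 and 50.7 ± 5.36 CPM at E14.5.

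Of 32 cytokine and cytokine receptor genes 7 were called higher and 2 lower, and the median was 0.17. Il1b, the inflammasome-processed cytokine, had 857, 1034 and 941 CPM at P10 and 171, 199 and 195 CPM at E14.5 (2.33 ± 0.15, adjusted p = 1.11e-06). Il10, which restrains inflammatory macrophages, had 62, 169 and 106 CPM at P10 and 1.17, 5.42 and 2.02 CPM at E14.5 (5.28 ± 0.61, adjusted p = 0.000121). Osm, an IL-6 family cytokine, averaged 169 ± 54.8 CPM at P10 and 14 ± 6.61 CPM at E14.5. Tnf went the other way, with 172, 221 and 205 CPM at P10 and 491, 577 and 638 CPM at E14.5 (-1.51 ± 0.16, adjusted p = 7.19e-05). Il4ra, the receptor chain for IL-4 and IL-13, fell by 1.13 ± 0.16. Without P10 replicate 2 the count of cytokine genes called higher was 4, and without P10 replicate 3 the count called lower was 4.

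Immediate early genes, which respond within minutes to stimulation and also to cell isolation, were called higher far more often than lower. Of 27 tested 15 were called higher and 1 lower, 10 to 15 higher without each library in turn, and the median log2 change was 0.74. Egr1 was the gene called lower, with 1395, 1767 and 1922 CPM at P10 and 5005, 4864 and 5294 CPM at E14.5 (-1.58 ± 0.17, adjusted p = 5.83e-05). Fos, which is induced by the same kinds of stimuli, had 3932, 4273 and 4698 CPM at P10 and 2734, 1982 and 2140 CPM at E14.5 (0.91 ± 0.14, adjusted p = 0.000988). Ier3 averaged 1806 ± 335 CPM at P10 and 711 ± 36.2 CPM at E14.5. With Y-linked genes as a covariate 4 immediate early genes were called higher. None of 22 heat shock and chaperone genes was called in the edgeR fit of all libraries with TMM scaling, and their median was -0.28. In edgeR 4 were called lower with total-count scaling, 4 in the fit of the 6 libraries and 2 with the length trend removed. At an unadjusted p under 0.05 the TMM fit put 7 of them lower and 0 higher, DESeq2 called 5 lower and limma voom called 0. The labels give no dissociation time, and the part of handling was not tested.

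Lysosomal and lipid genes rose in part. Of 29 lysosome genes 15 were called higher and none lower (median 0.47). The count was 8 without P10 replicate 2 or E14.5 replicate 2, and 9 without P10 replicate 3 or E14.5 replicate 3 or with the length trend removed. Ctsh, a cysteine protease, had 852, 1082 and 838 CPM at P10 and 259, 301 and 300 CPM at E14.5 (1.69 ± 0.13, adjusted p = 3.3e-06). Npc2, the lysosomal cholesterol carrier, averaged 928 ± 97.2 CPM at P10 and 456 ± 18.6 CPM at E14.5.

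Among 26 lipid handling genes 4 were called higher and 3 lower. Pltp, which moves phospholipids between lipoproteins, had 632, 574 and 691 CPM at P10 and 67.3, 67.9 and 82.7 CPM at E14.5 (3.12 ± 0.13, adjusted p = 4.78e-09). Pla2g7, the secreted phospholipase that degrades platelet-activating factor, averaged 938 ± 17.7 CPM at P10 and 106 ± 20 CPM at E14.5 (3.15 ± 0.22, adjusted p = 1.83e-06). Apoe, the lipoprotein component made in quantity by macrophages, had 31160, 36202 and 32722 CPM at P10 and 16438, 11007 and 11563 CPM at E14.5 (1.36 ± 0.17, adjusted p = 0.000232). Those called lower included Abca1, a cholesterol exporter, and Scd2, a fatty acid desaturase. At most 1 gene of the list was still called lower without any one library.

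Some genes of iron handling and detoxification were higher. Of 22 heme and iron genes 7 were called higher and 3 lower, and the 7 were unchanged in number without each library in turn while the 3 became 0 without P10 replicate 1, P10 replicate 2, E14.5 replicate 1 or E14.5 replicate 3. Spic, the transcription factor of iron-recycling macrophages in the spleen, had 47.4, 54 and 43.6 CPM at P10 and 3.52, 3.45 and 2.71 CPM at E14.5 (3.90 ± 0.40, adjusted p = 4.06e-05). Trf, transferrin, averaged 3651 ± 309 CPM at P10 and 1466 ± 247 CPM at E14.5, and Cp, the ferroxidase ceruloplasmin, averaged 105 ± 26.7 CPM at P10 and 23.4 ± 2.36 CPM at E14.5. Of 32 glutathione and detoxification genes 13 were called higher and 2 lower. With the Y-linked covariate 4 were called higher. Sult1a1, a phenol sulfotransferase, averaged 152 ± 32.6 CPM at P10 and 12.6 ± 1.42 CPM at E14.5 (3.60 ± 0.27, adjusted p = 2.26e-06), and Mgst1, a microsomal glutathione transferase, averaged 45.8 ± 12.5 CPM at P10 and 3.81 ± 1.1 CPM at E14.5. The 2 genes called lower, Gclc and Txnrd1, were both lost without each library in turn, except that Txnrd1 was kept without P10 replicate 1.

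**Figure D4:**
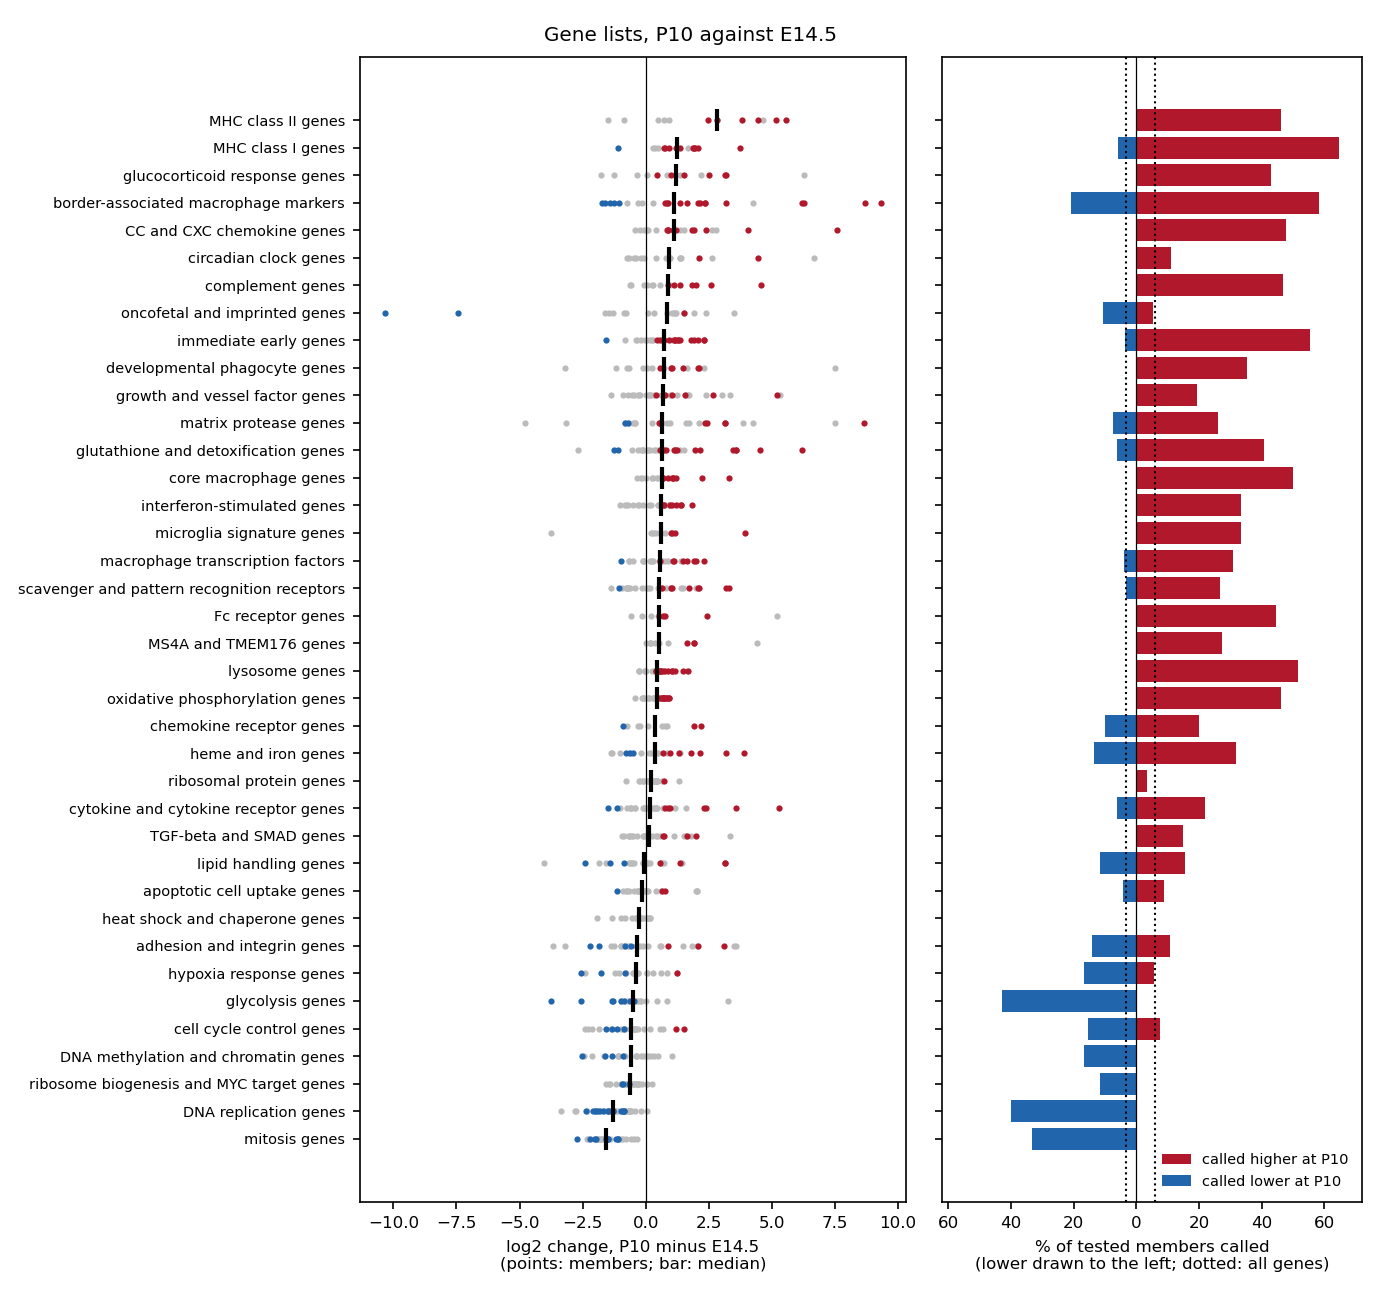
Left, fitted log2 change (P10 minus E14.5) of the tested members of each gene list, red where called higher, blue where called lower and grey where not called, with the list median as a black bar. Right, percent of members called higher (to the right) and lower (to the left), with dotted lines at the 5.81% and 3.15% of all tested genes. MHC class I and border macrophage lists lie farthest right of the dotted line and the glycolysis, DNA replication and mitosis lists farthest left.

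Genes of cell division were lower or not called, and none was called higher on the replication and mitosis lists. None of 40 DNA replication genes was called higher and 16 were called lower (median -1.28), with 10 to 12 lower without each library in turn and 15 with the length trend removed. Mcm5, a subunit of the helicase that opens origins, had 117, 85.9 and 86 CPM at P10 and 350, 350 and 372 CPM at E14.5 (-1.89 ± 0.17, adjusted p = 1.24e-05). Mcm4, of the same complex, fell by 2.10 ± 0.28. Pold1, the catalytic subunit of DNA polymerase delta, had 18.9, 19.8 and 19.3 CPM at P10 and 95.2, 97.3 and 103 CPM at E14.5 (-2.35 ± 0.29, adjusted p = 0.000224). Rrm1, of the enzyme that makes deoxynucleotides, averaged 122 ± 28.6 CPM at P10 and 396 ± 47.4 CPM at E14.5.

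Of 30 mitosis genes 10 were called lower and none higher (median -1.58). The count was 2 to 5 without each library in turn, with 2 when E14.5 replicate 1 was left out. It was 1 with the Y-linked covariate, 13 with DESeq2 and 26 with limma voom. Aurkb, the kinase of the chromosomal passenger complex, had 33.7, 32.4 and 32 CPM at P10 and 148, 112 and 121 CPM at E14.5 (-1.96 ± 0.28, adjusted p = 0.000632). Mki67 and Top2a, common marks of dividing cells, were not called. Mki67 had 16.2, 22.1 and 21.4 CPM at P10 and 83.3, 64.5 and 71.1 CPM at E14.5 (-1.87 ± 0.90, adjusted p = 0.233), with no overlap between the ages, as for 35.4% of all tested genes. Both were named after their values were seen. The summed level of the 40 replication genes was 1955 to 2213 CPM of the total count at P10 and 5510 to 5813 at E14.5, and that of the 30 mitosis genes was 1468 to 1652 at P10 and 4025 to 4916 at E14.5. Mcm5 had means of 207 ± 13.2 CPM at P3 and 39.1 CPM at P56, beside 96.5 ± 18.2 CPM at P10.

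Promoter windows of these lists shared some short motifs and differed in the frequency of others. The E2F motif was searched as TTTGGCGC, TTTCCCGC, TTTCGCGC or TTTGCCGC on either strand, where overlapping matches were counted. It was found in 13 of 31 replication genes with a window (41.9%), beside 4.67% of tested genes with one, and in 3 of 25 mitosis genes (12%). The CHR motif TTTGAA, which is known from genes of the G2 and M phases, was found in 19 of 25 mitosis genes (76.0%), beside 14.8% of tested genes, and in 4 of 31 replication genes (12.9%). CCAAT was in 20 of the mitosis genes (80.0%) and 19 of the replication genes (61.3%), beside 43.0% of tested genes. The windows of Mcm5 and of Cdca8, a subunit of the passenger complex, are shown as 1 gene of each list, from 170 bases before to 30 after the start. In Mcm5, at chr8:75109339-75109538 (plus strand), capitals mark TTTCGCGC and GCGCCAAA, which overlap and begin 153 and 149 bases upstream, and 3 CCAAT boxes, 77 and 22 bases upstream and 6 downstream. In Cdca8, at chr4:124936888-124937087 (minus strand), they mark 4 inverted CCAAT boxes, 3 of them 85, 51 and 11 bases upstream, and TTTGAA 13 bases downstream, which overlaps the fourth box.
Mcm5: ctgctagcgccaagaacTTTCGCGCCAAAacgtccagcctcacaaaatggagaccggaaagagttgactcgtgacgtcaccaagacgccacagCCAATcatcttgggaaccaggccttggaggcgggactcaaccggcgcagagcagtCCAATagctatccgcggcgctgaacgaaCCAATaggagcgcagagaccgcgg
Cdca8: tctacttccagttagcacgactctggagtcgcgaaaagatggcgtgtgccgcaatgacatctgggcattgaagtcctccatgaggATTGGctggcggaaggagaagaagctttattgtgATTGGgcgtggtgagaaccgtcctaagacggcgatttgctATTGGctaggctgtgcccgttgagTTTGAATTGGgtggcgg
Cdca8 had 89.6, 67.1 and 67 CPM at P10 and 194, 150 and 137 CPM at E14.5 (-1.11 ± 0.20, adjusted p = 0.00426). It lost its call with the fibroblast or Y-linked covariate and without E14.5 replicates 1 and 2.

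Single genes of chromatin maintenance and of the embryonic programme were lower, while most members of both lists were not called. Uhrf1, which brings DNA methyltransferase to newly copied DNA, had 32.2, 18 and 28.3 CPM at P10 and 157, 136 and 153 CPM at E14.5 (-2.51 ± 0.32, adjusted p = 0.000283). It was 1 of 4 called lower among 24 genes of DNA methylation and chromatin, and 1 to 4 were called lower without each library in turn. Of 19 oncofetal and imprinted genes 2 were called lower and 1 higher, with a median log2 change of 0.83 and 12 of the 19 above 0. The gene called higher was Cdkn1c, an imprinted inhibitor of cyclin-dependent kinases. Igf2bp1, an oncofetal RNA-binding protein, had 0.154, 0 and 0.56 CPM at P10 and 30.7, 36.7 and 55 CPM at E14.5 (-7.43 ± 1.14, adjusted p = 0.00115). Its P3 mean was 3.44 ± 0.531 CPM. Lin28b, which blocks let-7 maturation, was also called lower but lost the call without each P10 library and without E14.5 replicate 2 or 3. Ppp1r10, a regulatory subunit of protein phosphatase 1, had 40.6, 47.5 and 51.9 CPM at P10 and 153, 313 and 345 CPM at E14.5 (-2.54 ± 0.44, adjusted p = 0.00267).

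Glycolysis and respiration genes moved in opposite directions by count. Of 21 glycolysis genes 9 were called lower and none higher (median -0.51), also 9 with the length trend removed, and 5 without P10 replicate 2, P10 replicate 3 or E14.5 replicate 2. Pkm, the pyruvate kinase of proliferating and myeloid cells, had 284, 236 and 247 CPM at P10 and 631, 629 and 607 CPM at E14.5 (-1.28 ± 0.14, adjusted p = 6.91e-05). Gpi1, the second enzyme of the pathway, averaged 177 ± 5.79 CPM at P10 and 321 ± 22.8 CPM at E14.5. Of 26 nuclear genes of oxidative phosphorylation 12 were called higher (median 0.44), but 0 with the length trend removed and 1 without P10 replicate 2. These 26 genes have short transcripts, with a median of 1698 bases. Ribosomal protein genes, shorter still at 1270.5 bases, had 1 of 30 called higher.

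Adhesion, growth factor and clock genes gave single strong changes. Itga6, the laminin-binding integrin alpha 6, had 65.1, 70.5 and 64.9 CPM at P10 and 237, 230 and 258 CPM at E14.5 (-1.86 ± 0.23, adjusted p = 0.000232). Mmp14, a membrane-anchored collagenase also made by fibroblasts, had 145, 83 and 110 CPM at P10 and 16.1, 30.6 and 16.5 CPM at E14.5 (2.42 ± 0.36, adjusted p = 0.000988). Pdgfc, a growth factor for mesenchymal cells, had 27.9, 21.7 and 19.6 CPM at P10 and at most 1.64 CPM at E14.5 (5.21 ± 0.83, adjusted p = 0.00157). Dbp, an output gene of the circadian clock, averaged 46.5 ± 8.49 CPM at P10 and 2.08 ± 1.63 CPM at E14.5 (4.47 ± 0.60, adjusted p = 0.000405). Of 18 clock genes tested 2 were called, both higher, and the labels give no time of day.

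Macrophage transcription factors had 8 of 26 called higher and 1 lower (median 0.56). None of the 8 was still called with the Y-linked covariate. Of the 8, Klf2, Klf4, Klf6 and Nr4a1 were also counted among the immediate early genes, and Id2 and Id3 among the TGF-beta and SMAD genes. Nr4a1, an orphan nuclear receptor and itself an immediate early gene, had 861, 994 and 1318 CPM at P10 and 185, 294 and 361 CPM at E14.5. Zeb2, a repressor tied to macrophage identity, was the gene called lower, with means of 128 ± 30.4 CPM at P10 and 256 ± 37.8 CPM at E14.5. It lost its call with the length trend removed (adjusted p = 0.14) and with the mast cell (0.0674) or erythroid (0.0665) covariate.

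The other lists had fewer or less stable calls. Scavenger and pattern recognition receptors had 8 of 30 called higher and 1 lower, and Clec4a3, an inhibitory C-type lectin, rose by 1.71 ± 0.19. Microglia signature genes had 4 of 12 called higher, developmental phagocyte genes 6 of 17, and growth and vessel factors 6 of 31, with none lower in these 3 lists. With the Y-linked covariate the counts called higher were 1, 2 and 1. Glucocorticoid response genes had 6 of 14 called higher, but 3 without P10 replicate 2 or 3 and 2 without E14.5 replicate 2. Matrix protease genes had 7 of 27 called higher and 2 lower, but 2 to 4 higher without each library in turn. TGF-beta and SMAD genes had 4 of 27 called higher, and 2 without P10 replicate 3 or E14.5 replicate 1. Ribosome biogenesis and MYC target genes had 3 of 26 called lower, and 0 without P10 replicate 3, E14.5 replicate 1 or E14.5 replicate 3. Adhesion and integrin genes had 3 of 28 called higher and 4 lower, hypoxia response genes 1 and 3 of 18, cell cycle control genes 2 and 4 of 26, chemokine receptor genes 2 and 1 of 10, and apoptotic cell uptake genes 2 and 1 of 23.

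**Figure D5:**
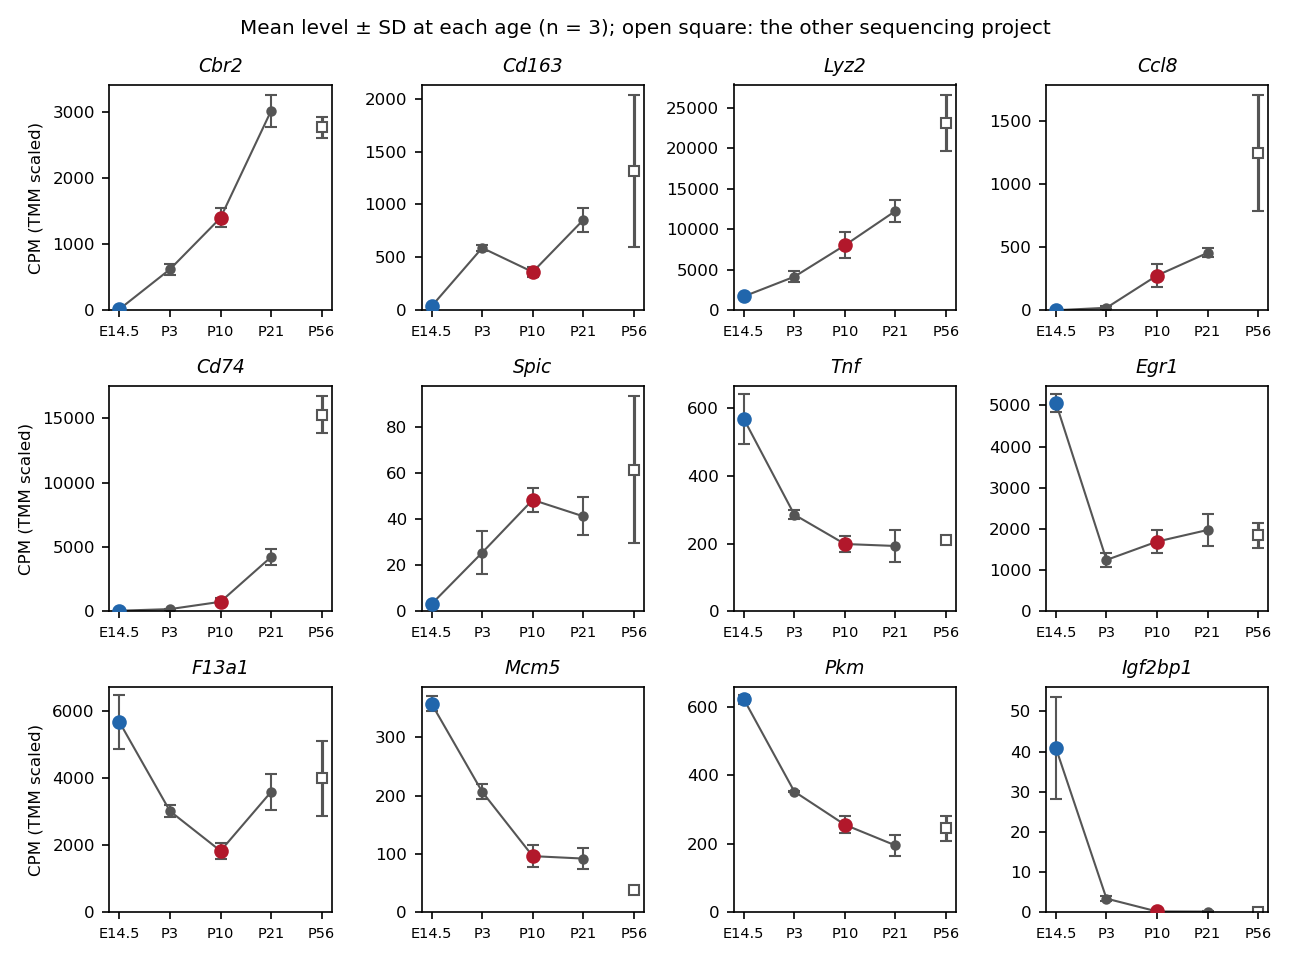
Mean level of 12 genes at E14.5 (blue), P3, P10 (red), P21 and P56, in CPM on linear axes that start at 0, with the SD of 3 libraries. The open square marks P56, which the labels put in another sequencing project. Cbr2, Lyz2, Ccl8 and Cd74 lie higher at P21 and P56 than at P10, Egr1 is already low at P3, and Igf2bp1 is near 0 from P10 on.

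Set beside the other ages, the P10 level was an intermediate point for some genes and near the later level for others. Cbr2 averaged 622 ± 82.3 CPM at P3 and 3018 CPM at P21, on either side of its P10 mean of 1400 ± 145. Tnf had means of 193 CPM at P21 and 211 CPM at P56, beside 199 ± 25.1 at P10. Egr1 averaged 1249 ± 169 CPM at P3 and 1695 ± 270 CPM at P10, both under its E14.5 mean of 5054 ± 219. The differences between P10 and these other ages were not tested here.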

How the data were processed

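Dural CD206+ macrophages were sorted and sequenced in 15 libraries, 3 at each of 5 ages, and the P10 and E14.5 libraries are compared here. The deposited values are raw read counts per gene, which the authors made with bcl2fastq 2.18, STAR 2.7.8a and featureCounts 2.0.2, per the submitters' processing notes. The genome build, annotation, strand setting and treatment of shared reads are not given in the sources used here. From the counts, edgeR 4.0.16 (R 4.3.3) was run with TMM scaling, filterByExpr by age and a robust quasi-likelihood fit of all 15 libraries on age. The contrast was P10 minus E14.5, adjusted by Benjamini-Hochberg over 14683 genes, and the SE is the log2 change divided by the square root of F. Alternatives were other scalings, filters, libraries and tools (limma 3.58.1, DESeq2 1.42.0), marker sums as covariates and leaving out each library. The fit without E14.5 replicates 1 and 2, which left 1 E14.5 library, was chosen after seeing the data. So was the removal of the length trend (loess, span 0.5, GENCODE M21 lengths for 14362 tested genes, 97.8%). Promoters are RefSeq windows on GRCm38.p6.

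The members and gene lists were chosen with earlier results of these data known. Named genes are the 12 largest rises and falls at 20 CPM or more, up to 3 called members per direction of each list at 5 CPM or more, and the identity genes. Col1a1, Ctsk, Acp5, Cd4, S100a8, S100a9, Clec10a, Lyve1, Ednrb, H2-Aa, B2m, C1qb, Fos, Cp, Mcm4, Mki67, Top2a, Ddx3y and Xist fall outside this rule and were chosen after their values were seen. The same holds for Igfbp4, Egfl7, Pecam1, Spp1, Alpl, S100a4, Cd209a, Klf2, Klf4 and Klf6. On simulated counts with known changes over 14062 genes, the same fit called 13.4% of genes changed 2-fold, 50.7% of those changed 4-fold and 71.2% of those changed 8-fold, and none of its 90 calls was false. The simulation held 200 changed genes and no length trend, sex difference or transcripts of other cells. Its shares and its lack of false calls therefore need not hold for the real counts.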

Additional observations from a re-analysis of the deposited data

How the results depend on the processing

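Leaving out each library in turn gave 686 to 972 genes called, 483 to 657 higher and 190 to 315 lower. DESeq2 called 2200 genes (1328 higher, 872 lower), limma voom 871 lower, the fit of the 6 libraries alone 2138 (1066 lower) and total-count scaling 727 lower. The test against a log2 change of 1 called 145 (126 higher, 19 lower). With a covariate the counts were 582 (435 higher, 147 lower) for fibroblast markers, 498 (373 and 125) for mast cell markers, 470 (355 and 115) for erythroid markers and 224 (165 and 59) for Y-linked genes. Without the E14.5 libraries with Xist they were 174 (139 and 35), on fewer samples, and with the length trend removed 685 (440 and 245). Beyond the construction of each alternative the cause was not tested. Same-numbered P10 and E14.5 libraries deviated together with correlations of 0.016, 0.0415 and 0.0416, so the numbers do not pair them, and a replicate block in the 6-library fit gave 923 genes lower.

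Ptprc, which encodes CD45 and was not called (log2 change -0.32, adjusted p = 0.227), was called lower without P10 replicate 3 (-0.54, adjusted p = 0.026). Identity genes that were not called with all libraries changed sign. With the length trend removed the log2 change was 0.0164 for Mrc1, 0.116 for Csf1r, 0.0145 for Ptprc and 0.0706 for Adgre1. Adgre1 was also above 0 at 0.0944 with upper-quartile scaling, 0.0382 with no filter, 0.0204 with a 5 CPM filter, 0.00278 in the 6-library fit, 0.00696 with its replicate block and 0.026 with the mast cell covariate, and it lay between -0.106 and 0.059 without each library in turn. With 3 libraries an age, most simulated 2-fold changes were not called.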
